A study of Mus musculus with 23 samples.

Results

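The effect of losing Aire was compared between 2 sorted populations of mouse medullary thymic epithelial cells (mTECs), cells of C57BL/6 thymus that were alive by DAPI, negative for CD45 and Ly51, positive for EpCAM, and either high (mTEChi) or low (mTEClo) for MHC class II. For each gene, the log2 change in AireKO over WT mTEChi was set against the log2 change in AireKO over WT mTEClo. A negative difference between the gates means that the knockout effect lay lower in mTEChi than in mTEClo, and a positive one that it lay higher. All 23 libraries of the series entered, and 19301 of the 53402 genes in the deposited count table were tested, the mitochondrially encoded mt- genes being left out. The AireKO mTEChi group had 4 libraries and the WT mTEChi group 7, against 4 libraries of AireKO mTEClo and 8 of WT mTEClo. Every AireKO library came from males, with 2 libraries at 5 weeks and 2 at 6 weeks in either gate. WT mTEChi comprised 5 male and 2 female libraries (2 at 4 weeks, 5 at 5 weeks), and WT mTEClo 5 male and 3 female libraries (5 at 4 weeks, 3 at 5 weeks). The labels name the knockout only as AireKO, without its allele or breeding, and do not say how many mice gave a library. The p-values therefore measure the spread between these libraries, which may be technical in part.

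Aire is a nuclear protein of mature mTECs that promotes the transcription of many genes otherwise limited to single peripheral tissues, so that developing T cells meet the encoded self antigens. Aire protein is found mainly in the MHC class II-high cells. The MHC class II-low gate holds a mixture, which includes immature cells, CCL21-producing cells and, at later stages, cells that have passed through Aire expression and have taken on features of peripheral cell types. In bulk libraries such as these, fewer cells of a type and less RNA per cell cannot be told apart.

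Library totals lay between 1602125 and 3938588 counts. The total RNA protocol used Tn5 transposase and keeps no strand, so genes that overlap, and genes with near-identical copies, are uncertain. Epcam, the epithelial gate antigen, averaged 223 to 255 CPM (counts scaled to a common library size by the TMM method) in the 4 groups. H2-Aa, an MHC class II chain, averaged 672 ± 59.1 CPM in AireKO mTEChi and 648 ± 116 in WT mTEChi, and 447 ± 154 in AireKO mTEClo and 358 ± 73.1 in WT mTEClo (mean ± SD throughout). Ptprc, which encodes CD45, was present at 6.06 ± 0.652 CPM in AireKO mTEChi, 22.6 ± 9.53 in WT mTEChi, 10.8 ± 5.44 in AireKO mTEClo and 18.5 ± 5.06 in WT mTEClo. Across the libraries, 6 stood apart: the 4 of AireKO mTEChi and replicates 3 and 4 of AireKO mTEClo held no count of any of the 37 mt- genes, while the other 17 held 0.261% to 0.527%. All AireKO mTEChi libraries are among the 6 and no WT library is. The split therefore cannot be told apart from the knockout in mTEChi, and in AireKO mTEClo it coincides with the age of 6 weeks. Counts below are also given from a fit with a term for the 6 libraries, in which the difference between the gates reads AireKO mTEClo from replicates 3 and 4, so that both AireKO groups come from the 6.

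Aire itself, on chr10:78030022-78043610 (mm10), fell in both gates. It was counted at 38.9, 39.2, 21.4 and 17.1 CPM in the AireKO mTEChi libraries, against 758 to 921 CPM (median 825) in WT mTEChi. In AireKO mTEClo it stood at 7.61, 3.14, 0 and 0.245 CPM, against 19.6 to 128 CPM (median 76.9) in WT mTEClo. AireKO libraries lay below every WT library in either gate, and no AireKO mTEChi library was without Aire counts. The log2 change was −4.88 ± 0.45 in mTEChi and −5.21 ± 0.70 in mTEClo (± SE). The difference between the gates was 0.32 ± 0.97 and did not pass (edgeR quasi-likelihood test, Benjamini-Hochberg adjusted p = 0.86). With the term for the 6 libraries the Aire difference was 3.75 and did not pass either (adjusted p = 0.24).

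The knockout effect differed between the gates for 4732 genes, 24.5% of those tested, at an adjusted p under 0.05. The difference was positive for 2012 genes (10.4%) and negative for 2720 (14.1%). Negative differences were the larger ones, with a median of −1.78 in log2 against 0.71 for the positive ones, and 2102 negative but 507 positive differences exceeded 1 in size. Over all genes tested the median difference was −0.03. In each gate on its own, 4848 genes (25.1%) were higher and 5479 (28.4%) lower in AireKO mTEChi, and 2282 (11.8%) were higher and 1924 (9.97%) lower in AireKO mTEClo. With the term for the 6 libraries 2600 differences were positive (13.5%) and 2826 negative (14.6%), and 1694 positive and 2265 negative ones were called in both fits, while 5 of the 4732 had the other sign. Under upper quartile scaling, which moved the median difference of all genes to −0.12, 1427 were positive and 3180 negative, so the positive share of the calls was 31% there and 42.5% under TMM.

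**Figure D1:**
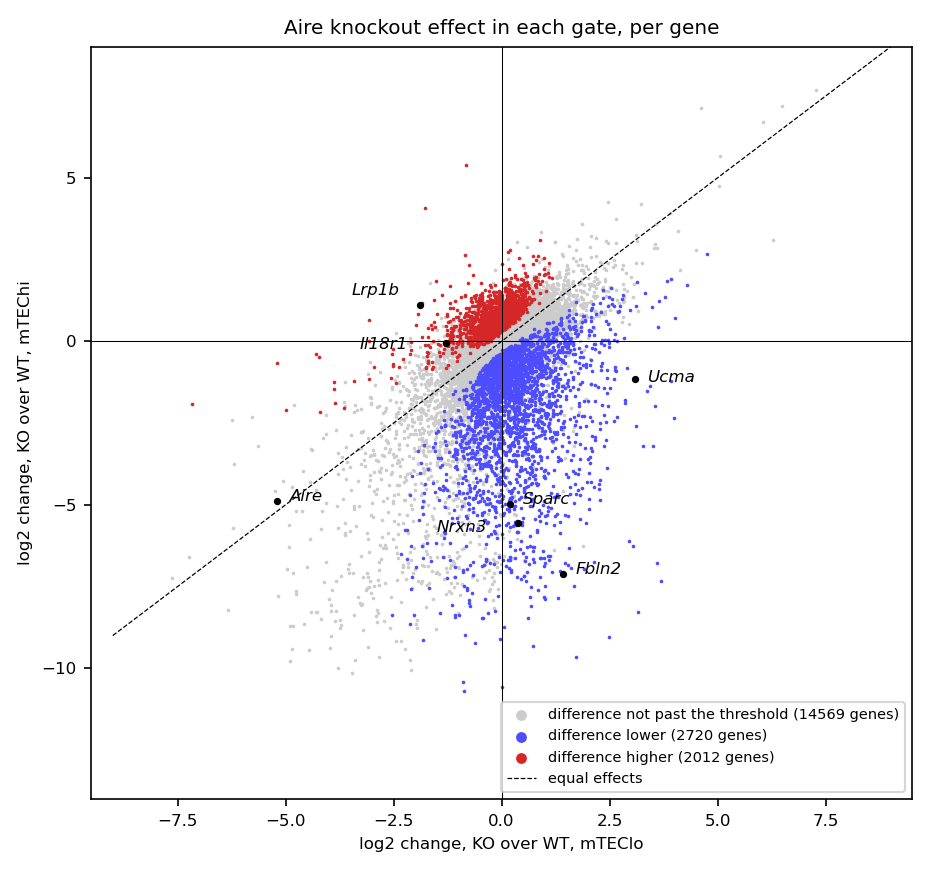
Each point is a gene, placed by its log2 change in AireKO over WT mTEClo (horizontal axis) and mTEChi (vertical axis). The 2720 negative differences (blue) lie below the dashed line of equal effects and reach further from it than the 2012 positive ones (red), and Aire lies near the line, where its difference did not pass.

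Most called differences were changes of mTEChi. Of the 2720 genes with a negative difference, 1824 fell in AireKO mTEChi and were not called in mTEClo, 212 fell in both gates but more in mTEChi, and 268 fell in mTEChi and rose in mTEClo. Another 268 rose in mTEClo and were not called in mTEChi, 65 rose in both gates but more in mTEClo, and 83 were called in neither gate. Of the 2012 with a positive difference, 1393 rose in AireKO mTEChi and were not called in mTEClo, 164 rose in both but more in mTEChi, and 119 rose in mTEChi and fell in mTEClo. The other positive differences were 216 genes that fell in mTEClo alone by the call, 29 that fell in both but more in mTEClo, and 91 called in neither gate. In 82% of the called differences the knockout effect was the larger in size in mTEChi. By contrast, 2048 genes changed in the same direction in both gates without a called difference, 915 of them lower and 1133 higher.

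The patterns sat at unequal levels. Among the 1824 genes that fell in mTEChi alone by the call, the median gene had 2.85 CPM in AireKO and 13.4 CPM in WT mTEChi, and 8.30 CPM in AireKO and 7.997 CPM in WT mTEClo. Among the 1393 that rose in mTEChi alone by the call, the median gene had 91.7 CPM in AireKO and 55.8 CPM in WT mTEChi, and 57.8 CPM in AireKO and 56.5 CPM in WT mTEClo. Fewer counts thus stood behind the falls than behind the rises. Genes with a called difference were also longer, with a median gene length of 25.8 kb for positive and 29.1 kb for negative differences, against 18.3 kb for all genes tested. Genes over 100 kb made up 17.6% of the positive, 21.7% of the negative and 12.2% of all. Protein-coding genes made up 91.9% of the negative differences, 82.7% of the positive ones and 80.9% of all.

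**Figure D2:**
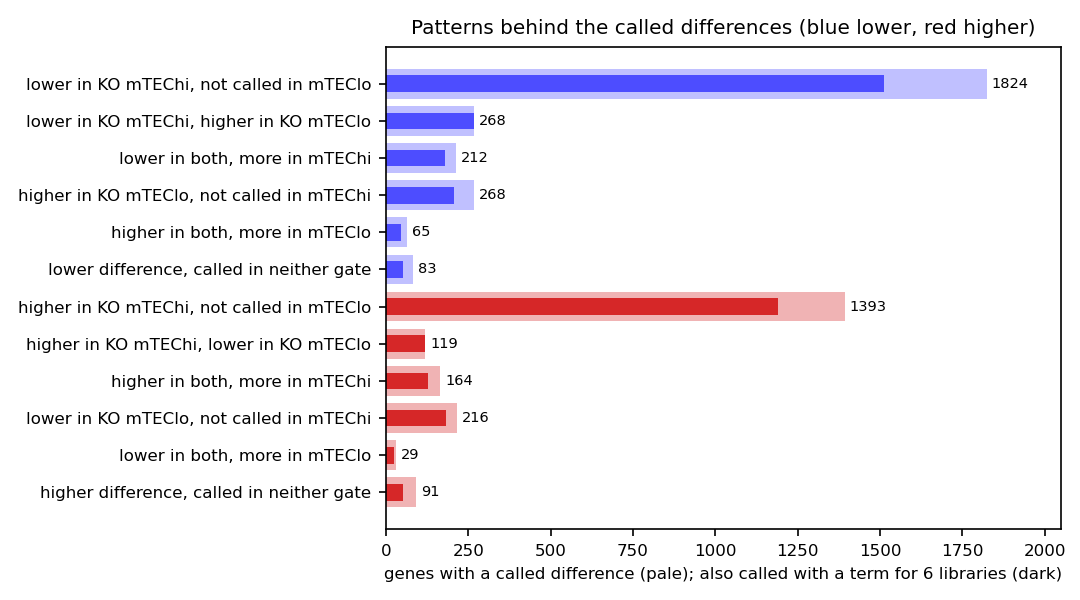
Bars give the number of genes with a called difference in each pattern of the 2 gates, negative differences in blue and positive ones in red. The dark part of a bar counts those also called with the term for the 6 libraries, 1513 of 1824 for the first pattern and 1189 of 1393 for the largest positive one.

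The 12 negative differences with the smallest p included secreted matrix proteins, membrane fusion proteins and proteins of nerve and muscle. They were Sparc, Fbln2, Nrxn3, Ucma, Myof, Otof, Cacna2d2, Npl, Unc5b, Grp, Mylk4 and Igfbp3. Promoter windows are printed for 4 genes that stand for some of the patterns, a fall in mTEChi alone by the call (Sparc), a fall in mTEChi with a rise in mTEClo (Fbln2, Ucma) and the reverse (Ltbp2). No window is printed for a rise in mTEChi alone, the largest positive pattern. Each is the 250 bases before the RefSeq start (GRCm38.p6), 5′ to 3′ on the gene's strand. The windows lie at chr11:55420081-55420330 (minus strand), chr6:91212514-91212763 (plus), chr2:4975872-4976121 (plus) and chr12:84876492-84876741 (minus). For Sparc, Fbln2 and Ltbp2 this start lies inside the gene's span in the annotation behind the counts. Capitals mark each CG dinucleotide, the site of DNA methylation in mammals.
Sparc: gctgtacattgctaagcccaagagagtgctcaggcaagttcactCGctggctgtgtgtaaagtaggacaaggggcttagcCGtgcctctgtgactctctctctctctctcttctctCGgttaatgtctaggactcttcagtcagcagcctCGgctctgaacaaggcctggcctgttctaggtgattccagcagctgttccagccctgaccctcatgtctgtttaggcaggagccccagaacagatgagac
Fbln2: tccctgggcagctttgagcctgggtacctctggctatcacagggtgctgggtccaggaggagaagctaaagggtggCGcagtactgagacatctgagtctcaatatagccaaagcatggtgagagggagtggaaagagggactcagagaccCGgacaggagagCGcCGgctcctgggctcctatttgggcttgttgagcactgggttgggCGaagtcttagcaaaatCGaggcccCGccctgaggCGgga
Ucma: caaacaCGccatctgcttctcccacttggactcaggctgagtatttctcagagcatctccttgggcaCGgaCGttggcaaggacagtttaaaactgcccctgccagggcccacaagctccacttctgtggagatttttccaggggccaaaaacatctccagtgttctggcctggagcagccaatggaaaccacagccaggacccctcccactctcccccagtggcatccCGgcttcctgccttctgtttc
Ltbp2: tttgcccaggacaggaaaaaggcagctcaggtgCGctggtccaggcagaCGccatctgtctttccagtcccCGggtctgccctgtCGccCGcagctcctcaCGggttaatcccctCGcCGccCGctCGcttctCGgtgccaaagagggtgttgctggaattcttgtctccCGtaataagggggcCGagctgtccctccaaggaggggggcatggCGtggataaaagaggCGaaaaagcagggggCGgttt
The windows hold 4, 8, 4 and 16 CG dinucleotides, where the median of all 13113 windows matched was 14. CG, read on either strand alike, is found in 97.8% of those windows. Windows were matched for 67.9% of the genes tested, too few for a comparison between sets of genes.

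Sparc, a secreted glycoprotein that binds collagen and lies on chr11:55394500-55423183, had the smallest p of all negative differences. The AireKO mTEChi libraries held 2.19, 2.04, 3.74 and 1.66 CPM, against 68.0 to 92.7 CPM (median 79.3) in WT mTEChi. The AireKO mTEClo libraries held 99.5, 116, 137 and 142 CPM, against 89.3 to 128 CPM (median 109) in WT mTEClo. The knockout libraries were far below all WT libraries in mTEChi and overlapped them in mTEClo. The log2 change was −4.97 ± 0.20 in mTEChi and 0.20 ± 0.11 in mTEClo, a difference of −5.17 ± 0.23 (adjusted p = 1.0e-15, edgeR).

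Nrxn3 encodes the presynaptic adhesion protein neurexin 3 and lies on chr12:88722876-90334935. It was counted at 0.875, 1.22, 0.679 and 1.66 CPM in AireKO mTEChi, against 49.4 to 60.3 CPM (median 54.2) in WT mTEChi. In AireKO mTEClo it stood at 19.6, 20.7, 26.6 and 18.2 CPM, against 11.8 to 27.5 CPM (median 15.3) in WT mTEClo. The groups were apart in mTEChi only, where the knockout had almost none of the transcript. The difference was −5.93 ± 0.35 (adjusted p = 8.0e-13, edgeR), made of −5.55 ± 0.29 in mTEChi and 0.38 ± 0.19 in mTEClo. Otof, the vesicle fusion protein otoferlin of hair cells, followed the same pattern with a difference of −6.21 ± 0.44 (adjusted p = 4.2e-11). Unc5b, a netrin receptor, differed by −3.13 ± 0.23 (adjusted p = 7.4e-11), with 4.49 to 7.49 CPM in AireKO mTEChi and 35.2 to 47.4 CPM in WT mTEChi.

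Several of the 12 rose in AireKO mTEClo while they fell in AireKO mTEChi. Fbln2, the extracellular matrix protein fibulin 2, lies on chr6:91212455-91272540. It had 0, 0.816, 0 and 0 CPM in AireKO mTEChi, against 22.9 to 42.5 CPM (median 36.4) in WT mTEChi. It had 46.8, 33.3, 38.2 and 33.4 CPM in AireKO mTEClo, against 7.90 to 18.4 CPM (median 14.5) in WT mTEClo. The groups did not overlap in either gate and lay in opposite order. The AireKO mTEChi libraries held 2 counts against 646 in WT, a ratio of 176-fold lower with a 95% counting interval of 48.4 to 1453. In mTEClo the log2 change was 1.41 ± 0.20 (adjusted p = 9.6e-06), and the difference between the gates passed with adjusted p = 8.0e-13 (edgeR).

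Ucma, a secreted protein of cartilage on chr2:4976122-4985748, changed more in mTEClo. The AireKO mTEChi libraries held 7.88, 14.3, 15.6 and 12.1 CPM, against 19.6 to 31.3 CPM (median 28.7) in WT mTEChi. The AireKO mTEClo libraries held 29.4, 28.2, 39.1 and 52.7 CPM, against 1.93 to 5.63 CPM (median 4.49) in WT mTEClo. In WT the higher gate was mTEChi, and in the knockout it was mTEClo. The log2 change was −1.16 ± 0.21 in mTEChi and 3.08 ± 0.21 in mTEClo, a difference of −4.24 ± 0.29 (adjusted p = 2.3e-11, edgeR).

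Grp, which encodes gastrin-releasing peptide, had a like exchange of gates. It stood at 4.81, 6.52, 9.17 and 12.9 CPM in AireKO mTEChi, against 23.9 to 38.0 CPM (median 32.7) in WT mTEChi. It stood at 28.3, 39.5, 23.4 and 31.2 CPM in AireKO mTEClo, against 5.63 to 9.18 CPM (median 7.62) in WT mTEClo. Every AireKO library was outside the WT range of its gate, below it in mTEChi and above it in mTEClo. The difference was −3.84 ± 0.28 (adjusted p = 7.9e-11, edgeR). Cacna2d2, an auxiliary subunit of voltage-gated calcium channels, changed by −3.36 ± 0.23 in mTEChi and 0.81 ± 0.18 in mTEClo (difference adjusted p = 6.3e-11). Npl, an enzyme of sialic acid breakdown, changed by −2.93 ± 0.19 and 0.79 ± 0.20 in the same order of gates (7.2e-11). Myof, the ferlin myoferlin, changed by −1.78 ± 0.12 in mTEChi and 0.32 ± 0.09 in mTEClo (2.4e-11). Mylk4, a kinase of the myosin light chain kinase family, and Igfbp3, which binds insulin-like growth factors, differed by −5.99 ± 0.46 (adjusted p = 2.4e-10) and −5.03 ± 0.39 (adjusted p = 6.2e-10).

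**Figure D3:**
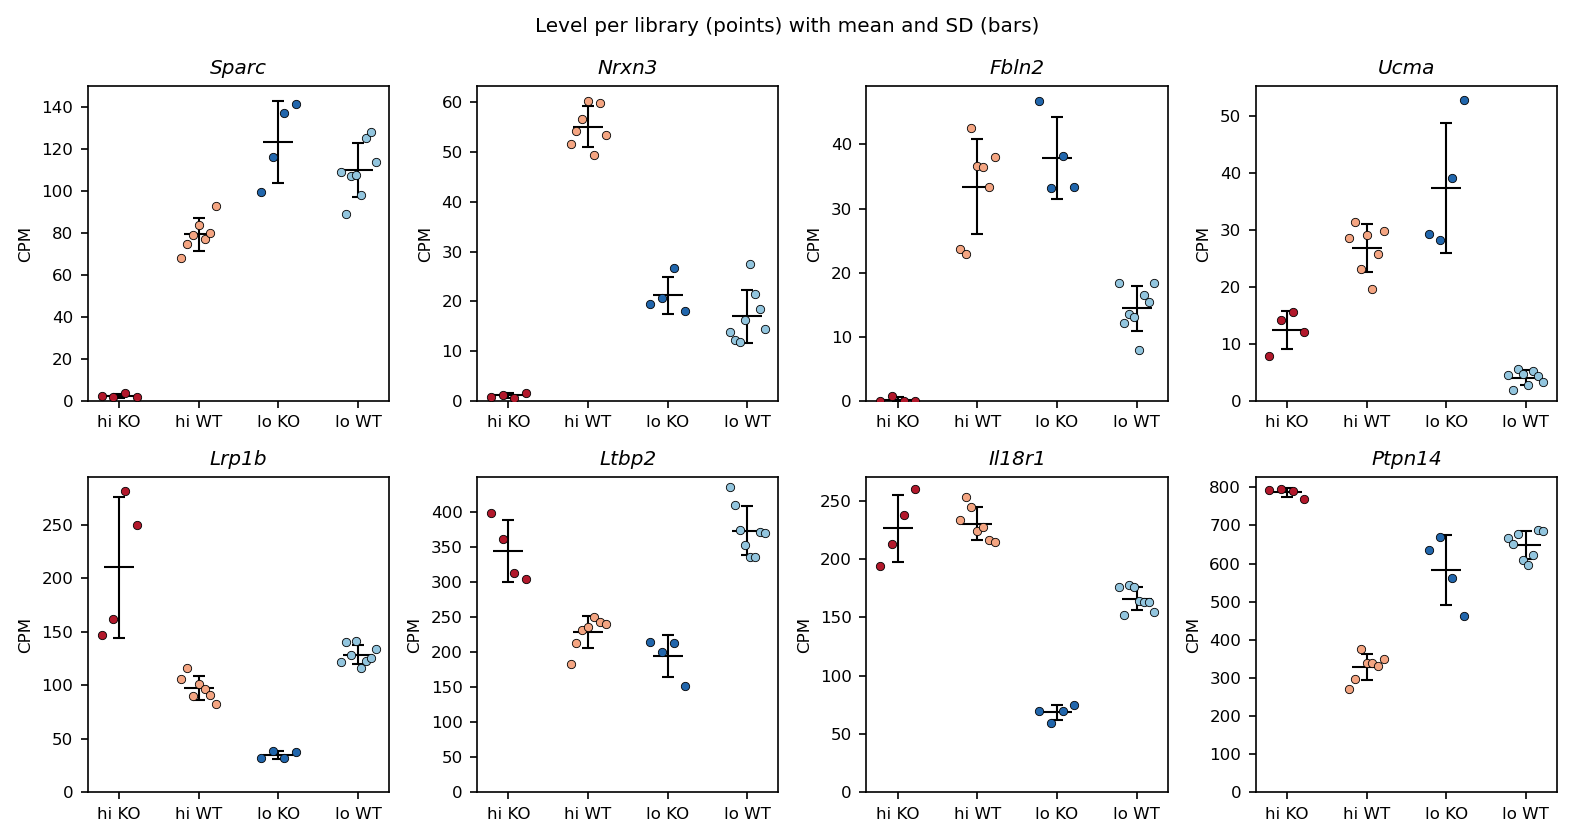
Points are libraries, in CPM, with the mean and SD of each group, for AireKO (KO) and WT of the mTEChi (hi) and mTEClo (lo) gates. Sparc and Nrxn3 were near 0 in KO mTEChi alone, Fbln2, Ucma, Lrp1b and Ltbp2 changed in opposite directions, Il18r1 was lower in KO mTEClo and Ptpn14 higher in KO mTEChi.

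The pattern of opposite change covered 387 genes, 2.01% of those tested. In 268 (1.39%) the gene fell in AireKO mTEChi and rose in AireKO mTEClo, and in 119 (0.617%) it rose in mTEChi and fell in mTEClo. The 268 had a median log2 change of −1.63 in mTEChi and 1.06 in mTEClo, and the 119 of 0.50 and −0.47, in that order of gates. All 387 kept a called difference with the term for the 6 libraries. How many passed the threshold in each gate separately was far less fixed. It was 83 with that term, 98 with sex and age in weeks as terms, and 657 without replicates 1 and 2 of AireKO mTEClo.

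Lrp1b led both the reverse pattern and all positive differences. It encodes a large endocytic receptor of the low-density lipoprotein receptor family and spans chr2:40595246-42653624. It was counted at 147, 162, 282 and 249.9 CPM in AireKO mTEChi, against 82.3 to 116 CPM (median 96.3) in WT mTEChi. It was counted at 32.1, 38.3, 31.7 and 38.0 CPM in AireKO mTEClo, against 117 to 141 CPM (median 127) in WT mTEClo. No library of the knockout reached into the WT range of its gate. Within AireKO mTEChi, replicates 3 and 4 stood above 1 and 2. The log2 change was 1.11 ± 0.13 in mTEChi and −1.88 ± 0.15 in mTEClo, a difference of 3.0 ± 0.19 (adjusted p = 7.4e-12, edgeR).

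Ltbp2, a microfibril protein of the latent TGF-beta binding protein family on chr12:84783212-84876532, changed likewise. It had 399, 361, 313 and 305 CPM in AireKO mTEChi, against 184 to 250.1 CPM (median 236) in WT mTEChi. It had 214, 201, 213 and 152 CPM in AireKO mTEClo, against 336 to 436 CPM (median 372) in WT mTEClo. Both gates were fully separated, and the gate with more Ltbp2 was mTEChi in the knockout and mTEClo in WT. The difference was 1.53 ± 0.14 (adjusted p = 8.0e-09, edgeR). Ttll3, a tubulin glycylase, differed by 1.85 ± 0.19 (adjusted p = 4.0e-08), with 75.0 to 102 CPM in AireKO and 41.1 to 50.6 CPM in WT mTEChi, and 13.2 to 19.2 CPM in AireKO and 22.6 to 36.2 CPM in WT mTEClo.

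Other members of this pattern had a small change in mTEClo. Cxcl16, the chemokine ligand of CXCR6, had 184, 193, 152 and 178 CPM in AireKO mTEChi, against 73.4 to 85.4 CPM (median 79.5) in WT mTEChi. It had 84.3, 90.3, 93.8 and 91.5 CPM in AireKO mTEClo, against 96.7 to 124 CPM (median 107) in WT mTEClo. The knockout libraries lay above all WT libraries in mTEChi and just below all of them in mTEClo. The log2 changes were 1.14 ± 0.09 and −0.24 ± 0.09 in that order, the second with an adjusted p of 0.047, and the difference was 1.38 ± 0.12 (adjusted p = 1.6e-09, edgeR). Calcrl, a receptor for calcitonin gene-related peptide and adrenomedullin, changed by 0.90 ± 0.08 in mTEChi and −0.34 ± 0.09 in mTEClo, a difference of 1.24 ± 0.12 (adjusted p = 1.3e-08).

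Among the 12 positive differences with the smallest p, 7 were rises of mTEChi only by the call. Ptpn14, a tyrosine phosphatase known to restrain YAP, had 793, 796, 790.1 and 770.1 CPM in AireKO mTEChi, against 272 to 376 CPM (median 338) in WT mTEChi. It had 636, 669, 563 and 462 CPM in AireKO mTEClo, against 595 to 687 CPM (median 658) in WT mTEClo. The groups were apart in mTEChi and overlapped in mTEClo. The difference was 1.41 ± 0.12 (adjusted p = 2.7e-09, edgeR). Atxn1, the ataxin that binds transcriptional corepressors, changed by 1.65 ± 0.11 in mTEChi and 0.08 ± 0.11 in mTEClo, and Psd3, an exchange factor for ARF proteins, by 1.34 ± 0.10 and −0.10 ± 0.10. Slc4a11, an ion transporter, changed by 1.93 ± 0.12 in mTEChi, and Lrig1, a membrane protein that restrains growth factor receptors, by 1.32 ± 0.09. Il1rl2, the receptor for interleukin 36, and Med13l, a subunit of the Mediator kinase module, rose by 1.05 ± 0.09 and 1.24 ± 0.08 in mTEChi. For Slc4a11, Lrig1, Il1rl2 and Med13l the mTEClo change did not pass, and the differences ran between 1.13 and 1.71 (largest adjusted p = 2.8e-08).

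Il18r1, a chain of the interleukin 18 receptor, was the one gene among the 12 whose change lay in mTEClo alone by the call. It had 194, 213, 238 and 259.9 CPM in AireKO mTEChi, against 215 to 253 CPM (median 227) in WT mTEChi. It had 70.2, 59.6, 69.9 and 75.3 CPM in AireKO mTEClo, against 152 to 178 CPM (median 164) in WT mTEClo. The knockout libraries overlapped the WT ones in mTEChi and were all below them in mTEClo. The log2 change was −0.04 ± 0.08 in mTEChi and −1.28 ± 0.09 in mTEClo, a difference of 1.24 ± 0.12 (adjusted p = 1.0e-08, edgeR).

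Genes of the extracellular matrix had negative differences more often than the 14.1% of all genes. The lists here and below were chosen with earlier results of these data known. An excess in them is therefore a description and not independent evidence, and the matrix list itself holds Sparc. Among 32 collagen genes tested, 21 had a negative and 0 a positive difference, with a median of −1.61 in log2, and with the term for the 6 libraries these counts were 22 and 0. In the gates separately, 23 collagens fell and 2 rose in AireKO mTEChi, and 3 fell and 7 rose in AireKO mTEClo. Over all genes 28.4% fell and 25.1% rose in mTEChi, and 9.97% and 11.8% in mTEClo. Col7a1, the collagen of anchoring fibrils, had 10.1, 11.01, 13.6 and 14.6 CPM in AireKO mTEChi, against 21.7 to 70.1 CPM (median 48.2) in WT mTEChi. It had 58.7, 73.4, 82.9 and 50.8 CPM in AireKO mTEClo, against 21.5 to 30.9 CPM (median 26.4) in WT mTEClo. The 2 genotypes did not overlap in either gate and were in opposite order, with a difference of −3.35 ± 0.30 (adjusted p = 7.2e-09, edgeR). Col2a1, the fibrillar collagen of cartilage, differed by −4.65 ± 0.38 (5.4e-09), and Col6a3, a chain of the beaded filament collagen, by −8.89 ± 0.94 (1.3e-07), both adjusted. Col6a3 averaged 0.419 ± 0.340 CPM in AireKO mTEChi and 103 ± 16.7 in WT mTEChi, against 2.17 ± 2.11 in AireKO mTEClo and 1.01 ± 0.924 in WT mTEClo, so it was counted in quantity in WT mTEChi alone.

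Of 55 other matrix and matricellular genes tested, 25 had a negative and 5 a positive difference (median −0.69), or 26 and 9 with the term for the 6 libraries and 26 and 3 under upper quartile scaling. Of the 25, 9 fell in AireKO mTEChi and rose in AireKO mTEClo by the call in each gate. Besides Sparc and Fbln2, Smoc2, a calcium-binding matricellular protein of the SPARC family, averaged 5.48 ± 1.39 CPM in AireKO mTEChi and 20.6 ± 5.29 in WT mTEChi. It averaged 176 ± 7.58 CPM in AireKO mTEClo and 136 ± 25.8 in WT mTEClo, and the difference was −2.32 ± 0.22 (adjusted p = 8.5e-09, edgeR). The positive differences included those of Lama3 and Lamb1, which encode laminin chains, Hspg2 (perlecan) and Timp3, an inhibitor of metalloproteinases.

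Markers of fibroblasts moved with the matrix genes. Of 16 tested, 10 had a negative and 0 a positive difference (median −1.27), and 6 of those 10, among them Col1a1, Col3a1 and Postn, also stand in the collagen or matrix lists. The summed level of the 19 markers ran from 383 to 406 CPM in AireKO mTEChi and from 537 to 766 in WT mTEChi, and from 851 to 958 CPM in AireKO mTEClo and from 940 to 1231 in WT mTEClo. Pdgfra, a defining fibroblast receptor, had 2 counts in AireKO mTEChi against 108 in WT mTEChi, a ratio of 29.3-fold lower with a 95% counting interval of 7.93 to 245. Dcn, which encodes decorin and is also a fibroblast marker, averaged 76.2 ± 15.8 CPM in AireKO mTEChi and 30.5 ± 4.81 in WT mTEChi. The markers thus did not move together, and 1 of the 19 was at 0 in all AireKO mTEChi libraries. The part of fibroblast RNA in the matrix result was not tested. Of 10 markers of pericytes and smooth muscle 4 differed negatively and 1 positively, with a median of 0.03 that turned to −0.06 under upper quartile scaling, and Acta2, smooth muscle actin, by −1.84 ± 0.24 (adjusted p = 2.2e-06).

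**Figure D4:**
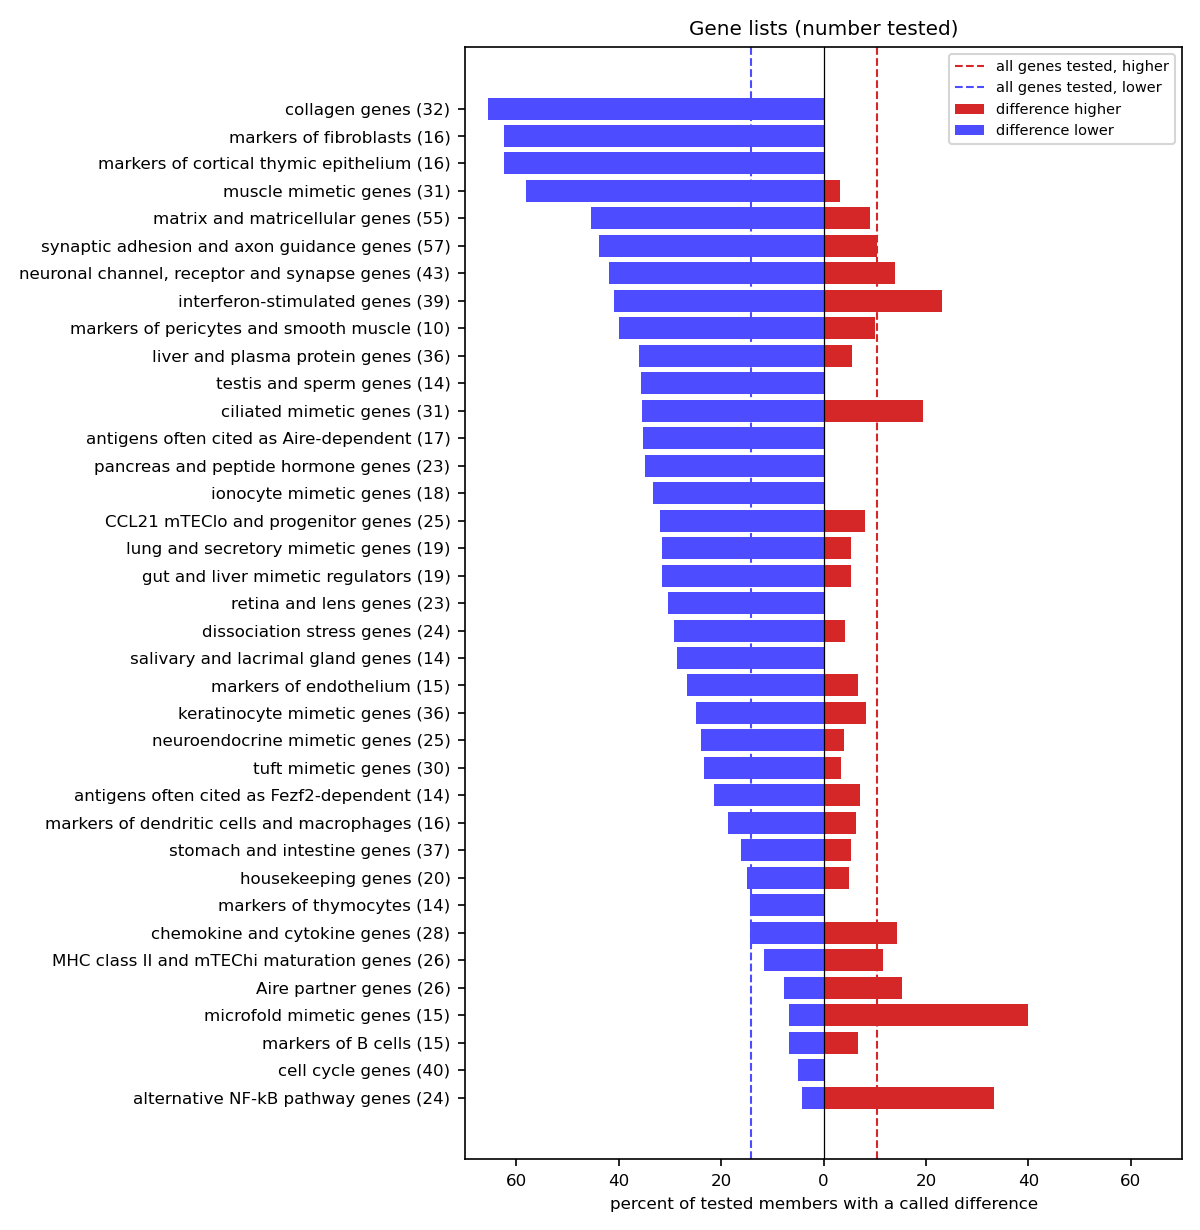
Bars give the percent of the tested members of each list of at least 10 with a negative (blue, left) or positive (red, right) difference, beside the percent over all 19301 genes (dashed lines, 14.1 and 10.4). Collagens and markers of fibroblasts and of cortical thymic epithelium reach furthest to the left, and microfold and alternative NF-kB genes furthest to the right.

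Genes of neurons also had negative differences in numbers above the background. Among 57 genes of synaptic adhesion and axon guidance tested, 25 had a negative and 6 a positive difference (median −0.61), with 23 and 7 with the term for the 6 libraries. Cntn4, an adhesion protein of the contactin family, averaged 0.393 ± 0.335 CPM in AireKO mTEChi and 12.6 ± 2.12 in WT mTEChi, and 2.65 ± 0.756 in AireKO mTEClo and 2.00 ± 1.05 in WT mTEClo, a difference of −5.31 ± 0.61 (adjusted p = 2.2e-07, edgeR). Lrp1b, the endocytic receptor described above, was counted in this list and had the smallest p of its positive differences. Lrrtm2, Csmd2, Unc5c, Adgrl2 and Dscam were the other positive ones. Of 43 neuronal channel, receptor and synapse genes, 18 had a negative and 6 a positive difference (median −1.01). Grin2a, an NMDA receptor subunit, had 2 counts in AireKO mTEChi against 184 in WT mTEChi, 50.0-fold lower with an interval of 13.6 to 416, and its mTEClo change of 0.50 ± 0.38 did not pass. Cacna1c, a pore subunit of L-type calcium channels, averaged 6.16 ± 1.63 CPM in AireKO mTEChi and 37.5 ± 12.7 in WT mTEChi, and 51.1 ± 18.7 in AireKO mTEClo and 44.5 ± 4.83 in WT mTEClo.

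Antigens often cited as Aire-dependent fell in AireKO mTEChi in 15 of 17 tested members and in AireKO mTEClo in 3, beside 28.4% and 9.97% of all genes. The difference itself was called in 6 of the 17 and was negative in those, beside 14.1% of all genes. The term for the 6 libraries instead gave 4 negative and 1 positive. The median difference was −4.53, or −4.73 with members at 0 in a group set to 3 counts over that group, and 6 members had a group without any count. Where WT mTEClo was itself near 0, setting AireKO mTEClo to 3 counts leaves almost no room for a fall there. The second median therefore does not fix the size of the difference. Ins2, the insulin gene, had no count in any AireKO library of either gate. In WT it had 4.36 to 15.8 CPM (median 10.4) in mTEChi, which makes AireKO mTEChi at least 36.2-fold lower, and 0 to 1.15 CPM (median 0.278) in mTEClo, where 8 counts allow only an at least 1.19-fold lower level. Sst, which encodes somatostatin, had no count in AireKO mTEChi, against 19.0 to 35.9 CPM (median 31.6) in WT mTEChi, at least 97.7-fold lower. In AireKO mTEClo it had 55.5, 0.627, 109.5 and 54.2 CPM, against 0 to 36.1 CPM (median 7.80) in WT mTEClo, so 3 of 4 knockout libraries were above all WT ones and replicate 2 was near 0. The Sst difference passed with an adjusted p of 0.0012 and its mTEClo change did not (0.087, both edgeR).

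Mucl2, a secreted salivary and lacrimal gland protein, was counted at 0.438, 0, 0 and 0.416 CPM in AireKO mTEChi, against 20.8 to 34.9 CPM (median 26.4) in WT mTEChi. In AireKO mTEClo it was at 0.544, 0, 0.592 and 0.491 CPM, against 0.301 to 5.20 CPM (median 1.21) in WT mTEClo. With 2 counts in AireKO mTEChi against 494 in WT, the ratio was 134-fold lower with an interval of 37.0 to 1112. It fell in both gates and the difference passed with adjusted p = 0.0057 (edgeR). Csn1s1, a milk casein, changed by −4.945 ± 0.43 in log2 in mTEChi and by 1.67 ± 0.46 in mTEClo, at low counts there. Csn2, another casein, averaged 470 ± 39.1 CPM in AireKO mTEChi and 412 ± 102 in WT mTEChi, against 119 ± 43.4 in AireKO mTEClo and 56.9 ± 15.2 in WT mTEClo, and its negative difference (adjusted p = 0.036) came from the mTEClo rise. With the term for the 6 libraries the Csn2 difference had an adjusted p of 0.4. Fezf2, the other regulator of tissue antigens in mTECs, differed by 0.00 ± 0.16 (adjusted p = 1), and 3 of 14 antigens often cited as Fezf2-dependent had a negative and 1 a positive difference, near the background.

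Organ-restricted gene lists gave mostly negative differences, beside 14.1% negative and 10.4% positive over all genes. They were 13 of 36 for liver and plasma proteins (2 positive), 8 of 23 for pancreas and peptide hormones, 7 of 23 for retina and lens, 5 of 14 for testis and sperm and 4 of 14 for salivary and lacrimal glands, with no positive one in those last 4. Stomach and intestine genes, with 6 of 37 negative and 2 positive, were near the background. Crp, the acute phase protein, went the other way. It had 19.7, 21.6, 21.1 and 22.5 CPM in AireKO mTEChi, against 12.1 to 19.6 CPM (median 14.3) in WT mTEChi, and 19.0, 23.8, 34.6 and 44.9 CPM in AireKO mTEClo, against 57.0 to 102 CPM (median 84.8) in WT mTEClo. Crp thus rose slightly in mTEChi and fell in mTEClo, a difference of 1.85 ± 0.25 (adjusted p = 2.8e-06, edgeR). Gnat1, the rod transducin, averaged 2.71 ± 1.18 CPM in AireKO mTEChi and 6.56 ± 1.64 in WT mTEChi, and 7.03 ± 1.17 in AireKO mTEClo and 1.51 ± 0.679 in WT mTEClo, and differed by −3.49 ± 0.42 (4.1e-07, adjusted).

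Genes of mimetic mTECs, which resemble peripheral cell types, differed by type. Of all genes, 14.1% had a negative and 10.4% a positive difference. By gate, 28.4% of all genes fell and 25.1% rose in AireKO mTEChi, and 9.97% fell and 11.8% rose in AireKO mTEClo. Muscle genes had 18 negative and 1 positive difference of 31 tested (median −1.78), with 21 falls and 2 rises in mTEChi and 0 falls and 8 rises in mTEClo. Myh3, embryonic myosin heavy chain, averaged 0.956 ± 0.733 CPM in AireKO mTEChi and 101 ± 22.8 in WT mTEChi, against 1.62 ± 0.491 in AireKO mTEClo and 2.22 ± 0.996 in WT mTEClo (difference −6.07 ± 0.68, adjusted p = 1.5e-07, edgeR). Myog, the muscle regulator myogenin, rose in mTEClo by 1.09 ± 0.30, where it averaged 60.7 ± 35.4 CPM in AireKO and 27.5 ± 7.16 CPM in WT, and did not pass in mTEChi. Ionocyte genes had 6 negative and 0 positive differences of 18. Foxi1, their lineage regulator, fell in both gates, with log2 changes of −5.55 ± 0.56 in mTEChi and −1.155 ± 0.35 in mTEClo (difference adjusted p = 5.8e-05). Tuft genes had 7 negative and 1 positive difference of 30, and 14 and 0 with the term for the 6 libraries, among them Dclk1, a kinase of tuft cells (−1.21 ± 0.19, adjusted p = 2.6e-05).

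Ciliated cell genes split. They fell in 22 of 31 tested in AireKO mTEChi and in 21 in AireKO mTEClo, with 11 negative and 6 positive differences. Trp73, which encodes the multiciliogenesis regulator p73, averaged 0.636 ± 0.736 CPM in AireKO mTEChi and 24.6 ± 8.84 in WT mTEChi, and 22.5 ± 2.00 in AireKO mTEClo and 16.0 ± 2.30 in WT mTEClo (difference −5.55 ± 0.46, adjusted p = 1.2e-09, edgeR). Foxj1, the regulator of motile cilia, instead averaged 49.2 ± 7.65 CPM in AireKO mTEChi and 47.7 ± 25.1 in WT mTEChi, and 8.51 ± 1.28 in AireKO mTEClo and 33.5 ± 3.21 in WT mTEClo, a positive difference of 1.98 ± 0.42 (adjusted p = 0.0013). Microfold genes had 6 positive and 1 negative difference of 15 (median 0.43), the negative one being Gp2. In AireKO mTEChi 5 microfold genes rose and 3 fell, and in AireKO mTEClo 0 rose and 7 fell. Sox8, their transcription factor, rose by 0.67 ± 0.20 in mTEChi and fell by 0.98 ± 0.22 in mTEClo, and Ccl20, a chemokine of follicle-associated epithelium, fell in both gates but more in mTEClo. Ccl20 had 32.4, 48.9, 34.6 and 49.5 CPM in AireKO mTEChi, against 56.4 to 102 CPM (median 64.5) in WT mTEChi, and 10.9, 14.4, 14.2 and 5.89 CPM in AireKO mTEClo, against 23.8 to 75.4 CPM (median 55.4) in WT mTEClo. For keratinocyte genes 9 of 36 were negative and 3 positive, for neuroendocrine genes 6 of 25 and 1, for lung and secretory genes 6 of 19 and 1, and for gut and liver regulators 6 of 19 and 1. The shares over all genes were 14.1% negative and 10.4% positive.

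Markers of cortical thymic epithelium, the other epithelial lineage of the thymus, had 10 negative and 0 positive differences of 16 (median −1.19), with 10 and 0 in the fit with the 6-library term. In AireKO mTEChi 5 rose and 7 fell, and in AireKO mTEClo 10 rose and 1 fell. Over all genes 25.1% rose and 28.4% fell in mTEChi, and 11.8% and 9.97% in mTEClo. Psmb11, the cortical proteasome subunit, averaged 8.48 ± 3.74 CPM in AireKO mTEChi and 6.24 ± 1.91 in WT mTEChi, and 17.1 ± 2.50 in AireKO mTEClo and 4.94 ± 4.08 in WT mTEClo (difference −1.51 ± 0.48, adjusted p = 0.022, edgeR). Cxcl12, the chemokine that keeps early thymocytes in the cortex, had 2.63, 2.04, 3.40 and 4.57 CPM in AireKO mTEChi, against 7.23 to 15.2 CPM (median 13.8) in WT mTEChi. It had 57.1, 71.5, 149 and 163 CPM in AireKO mTEClo, against 45.3 to 65.9 CPM (median 56.9) in WT mTEClo. Replicates 3 and 4 stood out in AireKO mTEClo, replicate 1 was within the WT range, and the difference was −3.04 ± 0.42 (adjusted p = 7.5e-06). Enpep encodes Ly51, on which cells were sorted as negative, and averaged 2.87 ± 1.78 CPM in AireKO mTEChi and 45.5 ± 9.06 in WT mTEChi, and 8.64 ± 4.96 in AireKO mTEClo and 5.73 ± 0.590 in WT mTEClo. The summed level of the 16 markers was 1618 to 1816 CPM in AireKO and 1293 to 1415 CPM in WT mTEChi, and 1363 to 1520.1 CPM in AireKO and 982 to 1258 CPM in WT mTEClo, so as a sum it was above WT in both gates.

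Genes listed for the alternative NF-kB pathway, through which RANK and related receptors drive mTEC maturation, leaned the other way. Of 24 tested, 8 had a positive and 1 a negative difference (median 0.30), or 13 and 1 with the term for the 6 libraries, but 4 and 1 under upper quartile scaling. In AireKO mTEChi 14 rose and 1 fell, and in AireKO mTEClo 1 rose and 2 fell. Over all genes 25.1% rose and 28.4% fell in mTEChi, and 11.8% and 9.97% in mTEClo. The positive ones were Tnfrsf11a, Map3k14, Ikbkb, Rela, Relb, Traf1, Traf2 and Traf3, and the negative one Tnfaip3. The list holds activating and restraining members together, some not particular to the alternative pathway. Its counts therefore do not measure pathway activity. Traf1, a receptor adaptor induced by the pathway, had 405, 395, 305 and 326 CPM in AireKO mTEChi, against 138 to 189 CPM (median 160) in WT mTEChi. It had 58.2, 50.8, 63.9 and 50.3 CPM in AireKO mTEClo, against 50.7 to 69.3 CPM (median 57.6) in WT mTEClo. The genotypes were apart in mTEChi and overlapped in mTEClo (difference 1.21 ± 0.14, adjusted p = 3.5e-07, edgeR). Map3k14, the NIK kinase of the pathway, differed by 0.82 ± 0.15 (adjusted p = 1.8e-04), while for Tnfrsf11a, which encodes RANK, neither gate passed alone and the difference of 0.65 ± 0.23 had an adjusted p of 0.037.

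MHC class II and maturation genes rose in 15 of 26 in AireKO mTEChi and in 9 in AireKO mTEClo, beside 25.1% and 11.8% of all genes. Of their differences 3 were positive and 3 negative, near the background. These counts were 7 and 2 with the term for the 6 libraries and 1 and 3 under upper quartile scaling. Cd80, a costimulatory ligand, had 116, 139, 138 and 155 CPM in AireKO mTEChi, against 186 to 218 CPM (median 200.3) in WT mTEChi. It had 36.4, 39.5, 13.9 and 20.1 CPM in AireKO mTEClo, against 14.1 to 28.2 CPM (median 19.7) in WT mTEClo. Cd80 was lower in every AireKO mTEChi library, and in AireKO mTEClo replicates 1 and 2 were above the WT range and 3 and 4 within or just below it. Its difference of −0.93 ± 0.26 passed (adjusted p = 0.0089, edgeR) but with the term for the 6 libraries it was −0.36 with an adjusted p of 0.22. Of 25 genes of CCL21-producing mTEClo and progenitor cells 8 had a negative and 2 a positive difference, with a median of −0.32 that turned to 0.16 with the term for the 6 libraries. Krt19, a simple epithelial keratin, averaged 13.4 ± 2.47 CPM in AireKO mTEChi and 54.2 ± 9.75 in WT mTEChi, and 122 ± 6.91 in AireKO mTEClo and 118 ± 28.9 in WT mTEClo (difference −2.08 ± 0.23, adjusted p = 1.1e-07). Ccl21a differed by −0.01 ± 0.33 and did not pass (adjusted p = 0.99). Among 28 chemokine and cytokine genes 4 were positive and 4 negative, and among 26 Aire partner genes 4 and 2, each near the background.

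Interferon-stimulated genes fell in both gates, in 29 of 39 in AireKO mTEChi and in 33 in AireKO mTEClo, beside 28.4% and 9.97% of all genes. Their falls yet differed in size in both directions. There were 16 negative and 9 positive differences (median −0.11), beside 14.1% and 10.4% of all genes, with 17 and 9 in the fit with the 6-library term. Rsad2, the antiviral protein viperin, had 0.438, 1.22, 6.11 and 1.25 CPM in AireKO mTEChi, against 42.4 to 73.5 CPM (median 58.6) in WT mTEChi. It had 27.7, 20.1, 14.2 and 25.3 CPM in AireKO mTEClo, against 43.2 to 66.8 CPM (median 56.1) in WT mTEClo. All knockout libraries were below WT in both gates, with a log2 change of −4.48 ± 0.33 in mTEChi and −1.31 ± 0.23 in mTEClo (difference −3.17 ± 0.41, adjusted p = 3.0e-06, edgeR). Mx1, an antiviral GTPase, fell more in mTEClo, with log2 changes of −0.65 ± 0.13 in mTEChi and −1.62 ± 0.13 in mTEClo (difference 0.97 ± 0.17, adjusted p = 9.5e-05). Ifit1, which binds foreign RNA, averaged 143 ± 37.7 CPM in AireKO mTEChi and 124 ± 12.1 in WT mTEChi, and 84.1 ± 18.9 in AireKO mTEClo and 162 ± 11.4 in WT mTEClo, and differed by 1.14 ± 0.18 (adjusted p = 2.5e-05).

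**Figure D5:**
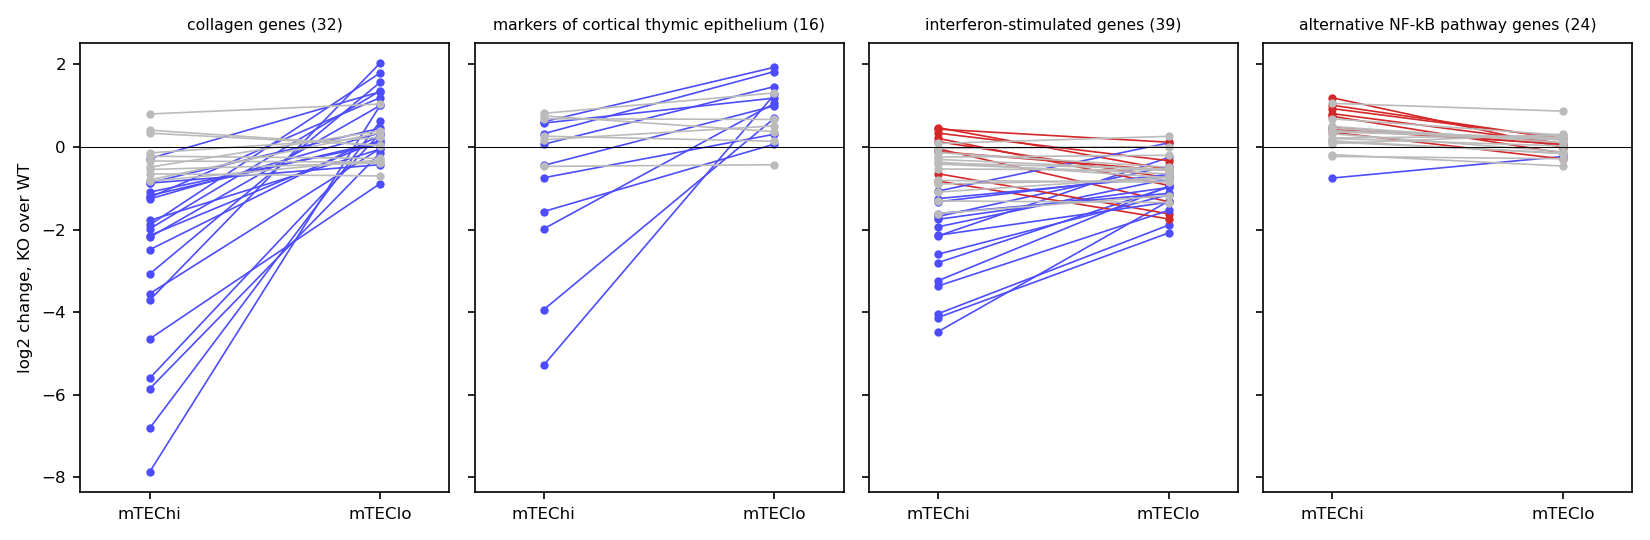
Each line joins the log2 change in AireKO over WT of a gene in mTEChi (left) and in mTEClo (right), coloured blue for a negative and red for a positive called difference and grey otherwise. By the call, 23 of 32 collagens fell and 2 rose in mTEChi, 10 of 16 cortical epithelial markers rose and 1 fell in mTEClo, 29 of 39 interferon-stimulated genes fell in mTEChi (3 rose) and 33 in mTEClo, and 14 of 24 alternative NF-kB genes rose and 1 fell in mTEChi. Over all genes 28.4% fell and 25.1% rose in mTEChi, and 9.97% fell and 11.8% rose in mTEClo.

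Cell cycle genes were sensitive to the 6 libraries. Of 40 tested, 2 had a negative and 0 a positive difference (median −0.38), below the background, whereas the term for the 6 libraries gave 1 negative and 13 positive with a median of 0.80. In AireKO mTEChi 15 of the 40 fell, beside 28.4% of all genes, and in AireKO mTEClo none passed in either direction. Mki67, the proliferation antigen, averaged 98.3 ± 26.8 CPM in AireKO mTEChi and 252 ± 63.7 in WT mTEChi, but ranged from 11.3 to 164 CPM in AireKO mTEClo, against 71.4 to 145 CPM in WT mTEClo. Dissociation stress genes, which respond to tissue digestion, had 7 negative and 1 positive difference of 24 (median −0.30), beside 14.1% and 10.4% of all genes. They rose in 5 of the 24 in AireKO mTEChi and in 13 in AireKO mTEClo, beside 25.1% and 11.8% of all genes. Their summed level was 1597 to 2051 CPM in AireKO and 1203 to 1638 CPM in WT mTEChi, and 2106 to 2324 CPM in AireKO and 1418 to 2074 CPM in WT mTEClo. Their part in the rises of mTEClo was not tested. Of 20 housekeeping genes 3 had a negative and 1 a positive difference (median −0.08, or 0.12 with the term for the 6 libraries).

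Of 14 thymocyte markers 2 differed, both negatively, near the 14.1% of all genes, and 1 with the term for the 6 libraries. Lck, a T-cell kinase and 1 of those 2, averaged 7.46 ± 1.9 CPM in AireKO mTEChi and 18.4 ± 3.46 in WT mTEChi, against 8.33 ± 1.64 in AireKO mTEClo and 7.26 ± 1.55 in WT mTEClo. Of 15 B-cell markers 1 was positive and 1 negative, a smaller share than the 24.5% called over all genes. Of 16 markers of dendritic cells and macrophages 1 was positive and 3 negative, near that share. Of 15 endothelial markers 4 were negative, a larger share than over all genes, and 1 positive, or 3 and 1 with the term for the 6 libraries. The positive one, Vwf, averaged 208 ± 38.3 CPM in AireKO mTEChi and 139 ± 31.0 in WT mTEChi. Summed over its 19 genes, the endothelial list overlapped between genotypes, with 356 to 412 CPM in AireKO and 330 to 465 CPM in WT mTEChi. Plvap, a protein of fenestrated endothelium, averaged 0.681 ± 0.461 CPM in AireKO mTEChi and 22.04 ± 7.15 in WT mTEChi, against 1.24 ± 0.990 in AireKO mTEClo and 1.58 ± 0.535 in WT mTEClo. Cdh5, a defining endothelial cadherin, averaged 0.425 ± 0.358 CPM in AireKO mTEChi and 6.56 ± 1.73 in WT mTEChi, and was at 0 in all AireKO mTEClo libraries and at 0.0376 ± 0.106 CPM in WT mTEClo. Of 3 tested red blood cell markers 1 was negative. Summed over its 22 genes, the thymocyte list had 316 to 487 CPM in AireKO and 292 to 341 CPM in WT mTEChi, and 95.6 to 134 CPM in AireKO and 106 to 116 CPM in WT mTEClo. The B-cell sum was 802 to 896 CPM in AireKO and 521 to 605 in WT mTEChi, and 220 to 291 in AireKO and 204 to 281 in WT mTEClo. The sum for dendritic cells and macrophages was 659 to 728 CPM in AireKO and 525 to 594 in WT mTEChi. In mTEClo that sum was 215 to 272 CPM in AireKO and 144 to 190 in WT. Of the 15 B-cell markers, 9 rose and 4 fell in AireKO mTEChi, and 8 rose and 3 fell in AireKO mTEClo. The part of such cells in the differences of single marker genes was not tested.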

How the data were processed

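RNA was measured in 23 libraries of sorted mouse mTECs, primed by oligo-dT together with not-so-random primers and cut by Tn5, per the labels' protocols. The deposited count table holds whole-number counts per gene for all 23 libraries. A second deposited table holds the authors' normalized signal, and every one of its values gave back a whole read (100% within 1e-06, for 20236 genes) equal to the deposited count, and 27 tested genes are not in it. The submitters' processing notes list HTSeq 0.11.2, STAR 2.7.3a, Picard 2.21.1, fastp 0.20.0, edgeR, SAMtools 1.9 and the mm10 build, without giving their order. Gene symbols and positions came from a mouse annotation of that build, in which 53402 of 53402 identifiers were found.

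From the counts, the 37 mt- genes were left out, genes were kept by filterByExpr (minimum count 10), libraries were scaled by TMM, and a robust quasi-likelihood model with terms for the 4 groups and sex was fitted in edgeR 4.0.16 (limma 3.58.1, R 4.3.3). The sex term rests on WT libraries, since all AireKO libraries are male. P-values were adjusted by Benjamini-Hochberg over all 19301 genes, and calls used 0.05. The SE is the log2 value over the root of the F statistic. Where a group held no count, a fold is a bound against 3 counts over the group, and ratios of 1 to 3 counts carry a 95% exact interval, both of which cover counting error only. Tested on simulated data with 18134 genes, the fit called 64% of 100 differences of 1 and 97% of 100 differences of 2 in log2. It called 0.0502% of 17934 unchanged genes. Recovery with as many changed genes as were called here, 4732 of 19301, was not tested. Nor was recovery with 6 libraries that stand apart.

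The genes and the 38 gene lists (1065 of 1071 symbols matched) were chosen with earlier results of these data known. Genes were named as Aire, Sparc and Lrp1b, the 12 with the smallest p in each direction and the 5 in each pattern of opposite change (mean of at least 5 CPM in the highest group, unnamed gene models left out), up to 3 members of each list, and Ins2, Mucl2, Fezf2, Cd80, Ccl21a and Gad1. Lama3, Lamb1, Hspg2, Timp3, Dcn, Cdh5, Csn2, Foxj1, Gp2, Myog, Psmb11, Tnfrsf11a, Mx1, Ifit1, Mki67 and the smaller synaptic adhesion genes were named after their values were seen. Alternatives were DESeq2 1.42.0, limma-voom, other scalings, filters and thresholds, age as a term, a replicate block, leaving out each library, and, chosen after seeing the data, those on the 6 libraries and the recovered reads. The labels do not say whether replicate numbers pair the gates. The correlation of deviations between same-numbered libraries ran from 0.145 to 0.227 over the 4 AireKO pairs, which match in age and sex, and from −0.107 to 0.075 over the 7 WT pairs, of which 4 differ in labelled age or sex, so the numbers were not taken as pairs over all groups.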

Additional observations from a re-analysis of the deposited data

Results flagged for a closer look

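The effect of the knockout differed between mTEChi and mTEClo by the test of the difference itself for 2012 genes with a positive and 2720 with a negative difference. The 2 gates changed in opposite directions for 119 genes that rose in AireKO mTEChi and fell in AireKO mTEClo, and for 268 genes that did the reverse.

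Of the genes described above, the log2 difference between the gates was 3.0 for Lrp1b, 1.38 for Cxcl16, 1.53 for Ltbp2, 1.24 for Calcrl and 1.85 for Ttll3, all with a rise in mTEChi and a fall in mTEClo. It was −8.53 for Fbln2, −4.24 for Ucma, −2.10 for Myof, −4.17 for Cacna2d2 and −3.72 for Npl, all with a fall in mTEChi and a rise in mTEClo. The Fbln2 value rests on 2 counts in AireKO mTEChi and is no bound.

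A single library lay far from the others of its group in 5 of 126 sets over 32 genes, where chance gives about 1 in 20. In WT mTEClo these were replicate 2 for Cxcl16 (124 CPM), replicate 3 for Calcrl (142.3 CPM), replicate 1 for Otof (32.8 CPM) and replicate 6 for Mucl2 (5.203 CPM). In AireKO mTEChi it was replicate 2 for Fbln2 (0.8156 CPM), which holds the only counts of that group.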

How the results depend on the processing

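No gene named by the stated rules with a called difference changed sign under the alternatives run. Genes named after their values were seen were not in that check. With the term for the 6 libraries 5 of the 4732 called genes changed sign. With that term the median difference turned from −0.38 to 0.80 for cell cycle genes. For CCL21 mTEClo and progenitor genes it turned from −0.32 to 0.16. Among 121 named genes with a called difference, 4988 of 5078 values over all alternatives stayed past the threshold and 90 did not. Most of the 121 were named for a small p in these same data, so these counts do not describe the 4732 calls as a whole. With the term for the 6 libraries 116 of the 121 stayed. Of 418 values of 10 named genes without a call, 15 passed. At an adjusted p under 0.01 the difference was positive for 1100 and negative for 1732 genes, 1213 rose and 1031 fell in AireKO mTEClo, and 157 changed in opposite directions. With a log2 size over 1 there were 507 positive differences, 1078 rises and 3404 falls in mTEChi, 816 rises and 691 falls in mTEClo, and 134 opposite changes. With sex and age as terms, 824 rose and 679 fell in mTEClo and 98 changed in opposite directions. In 5-week males alone, with fewer libraries, 1029 differences were positive and 1439 negative, 902 genes rose and 784 fell in mTEClo, and 140 changed in opposite directions. Chosen after seeing the data, the term for the 6 libraries gave 3497 falls in mTEChi and 83 opposite changes, and leaving out replicates 1 and 2 of AireKO mTEClo gave 657 opposite changes. The cause of these shifts was not tested. Leaving out each library in turn gave 1620 to 2110 positive and 2468 to 2857 negative differences, 4320 to 5171 rises and 5187 to 5756 falls in mTEChi, 1750 to 2519 rises and 1379 to 2035 falls in mTEClo, and 281 to 437 opposite changes. Same-numbered libraries of the gates deviated together in the 4 AireKO pairs but not in the WT ones, and 3 of 11 pairs correlated best with their own number. In AireKO, replicates 1 and 2 were at 5 weeks and 3 and 4 at 6 weeks in either gate. Shared age and pairing therefore cannot be told apart there. With the replicate block 1855 differences were positive and 2531 negative, 4672 genes rose and 5358 fell in mTEChi, 2219 rose and 2076 fell in mTEClo, and 312 changed in opposite directions. DESeq2 gave 1758 and 3350 and limma-voom 2193 and 3170 positive and negative differences. Recovered reads, chosen after seeing the data, gave 2028 and 2722. Few counts limit some values: Ins2, with 0 counts in AireKO and 8 in WT mTEClo, allows only an at least 1.19-fold lower level there.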
